A study of Mus musculus with 9 samples.

Results

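NF-kB subunits and feedback regulators were followed as a set of 10 genes in the back skin of mice with DNCB dermatitis, out of 55401 genes in the count table and 20817 that could be tested. The genes were taken by name from the deposited expression table and joined to the counts by gene identifier. They are Nfkb1, Nfkb2 and Relb, which code for subunits, Nfkbia, Nfkbiz and Bcl3, which code for IkB family proteins, Tnfaip3, Zc3h12a and Birc3, which code for enzymes that limit or shape the signal, and Traf3ip2, which codes for an adaptor. All 10 had enough counts to be tested. None of them passed the test for a difference between the treated and the untreated group, and for 8 of the 10 the difference between group means on the log2 scale was smaller than the pooled SD of the libraries.

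The mice were C57BL/6 males, 6 to 8 weeks old. All of them were sensitised with the contact allergen 2,4-dinitrochlorobenzene (DNCB) on shaved back skin on day 1 and challenged again from day 4 to day 21, which gives skin lesions like those of atopic dermatitis. The FJDHF-M group received the middle dose of the Fangji Dihuang herbal formulation by oral tube every day after day 7, and the Model group received water, until day 28. Polyadenylated RNA gave 5 FJDHF-M libraries (MR1, MR3, MR3_4, MR4_5 and MR5) and 4 Model libraries (MXL1, MXL12, MXL3_4 and MXL_3). The codes are not explained by the study. MR columns were assigned to FJDHF-M and MXL columns to Model because there are as many of each as samples labelled for those groups and because MX abbreviates the Chinese term for a model, and every direction given here rests on that assignment. Whether a code with more than 1 number stands for pooled mice is not stated, so n counts libraries, and the p-values measure only the spread between them. Skin that never met DNCB was not analysed here.

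NF-kB is a family of dimeric transcription factors that IkB proteins hold in the cytoplasm. In the canonical route an IkB kinase complex marks IkB alpha for destruction and frees dimers of p50 and RelA, and in the slower alternative route the p100 precursor is cut to p52, which pairs with RelB. Many of the genes that NF-kB switches on code for proteins that switch it off again, among them IkB alpha and A20. In skin this circuit acts in keratinocytes and in infiltrating leukocytes downstream of interleukin-1, interleukin-17 and TNF receptors.

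Total counts lay between 74648669 and 79474215 per library, and the floor of 3 counts corresponded to 0.0375 to 0.0415 CPM, which are counts scaled to the size of the library. Markers of epidermis and dermis were present in every library but varied, with Krt5 at 575 to 3200 CPM, Krt14 at 203 to 2322 CPM, Lor at 6.19 to 44.2 CPM and Col1a1 at 1355 to 10603 CPM. Markers of muscle (Acta1, 29.3 to 2838 CPM) and fat (Adipoq, 65.2 to 458 CPM) varied as well. Differences between single libraries touch the results that follow. The Model library MXL12 held 659 CPM of Il1b, the interleukin-1 beta gene, where the other 8 libraries held 2.23 to 50.2 CPM, and its mean neutrophil marker level, on the log2(CPM + 0.5) scale, was 5.51 against 1.88 to 3.43 elsewhere. The libraries also differed in how GC-rich genes were represented, a property called the GC trend here and described further on.

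Promoter sequences were read for the members that a RefSeq table covers. The RefSeq promoter table (GRCm38.p6) matched 6 of the 10 genes with 9 promoters. The 250 bases before each start were searched on both strands for a kB-type motif, namely GGG, any 2 bases, then TTTCC, which on the other strand reads GGAAA, any 2 bases, then CCC. It was found in 4 of these 9 promoters and in 464 of all 32851 promoters, or 1.41%. The 4 belong to Nfkbia, Tnfaip3 and Nfkb2, of which Nfkb2 has it in front of 2 of its 3 starts. A looser motif, GGG, any 3 bases, then TTCC, which takes in every match of the first, was found in 6 of the 9 and in 4.65% of all promoters. A match shows only that the letters are there. The promoters of Nfkbia (chr12:55492648-55492897, minus strand), Tnfaip3 (chr10:19015411-19015660, minus strand) and the most upstream Nfkb2 start (chr19:46304487-46304736, plus strand) are shown because the motif lies close to their starts, and that of Zc3h12a (chr4:125127882-125128131, minus strand) because this gene had the widest range of levels. Each reads 5′ to 3′ on the strand of its gene and ends at the base before the start, with matches to either motif in capitals.
Nfkbia: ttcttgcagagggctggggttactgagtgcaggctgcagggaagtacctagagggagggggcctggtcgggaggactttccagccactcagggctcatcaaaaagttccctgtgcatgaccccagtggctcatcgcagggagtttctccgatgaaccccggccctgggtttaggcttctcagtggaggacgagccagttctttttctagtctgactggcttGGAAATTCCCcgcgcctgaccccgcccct
Tnfaip3: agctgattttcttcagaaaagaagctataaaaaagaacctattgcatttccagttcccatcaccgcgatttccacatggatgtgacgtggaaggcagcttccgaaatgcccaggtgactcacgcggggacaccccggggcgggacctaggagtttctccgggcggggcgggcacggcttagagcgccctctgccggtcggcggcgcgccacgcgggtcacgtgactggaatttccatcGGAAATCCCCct
Nfkb2: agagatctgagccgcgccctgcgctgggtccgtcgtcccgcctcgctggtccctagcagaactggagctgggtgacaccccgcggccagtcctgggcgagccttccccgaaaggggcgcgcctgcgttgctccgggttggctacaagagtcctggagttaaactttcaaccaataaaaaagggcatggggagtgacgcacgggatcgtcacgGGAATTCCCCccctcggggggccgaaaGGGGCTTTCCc
Zc3h12a: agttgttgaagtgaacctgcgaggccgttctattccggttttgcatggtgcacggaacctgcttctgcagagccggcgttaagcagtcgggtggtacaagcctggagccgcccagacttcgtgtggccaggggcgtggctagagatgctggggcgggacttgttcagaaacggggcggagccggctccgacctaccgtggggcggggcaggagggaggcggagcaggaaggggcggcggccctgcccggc
The Nfkbia match GGAAATTCCC lies 29 to 20 bases before the start and the Tnfaip3 match GGAAATCCCC 12 to 3 bases before it. Nfkb2 carries GGAATTCCCC, which fits the looser motif, at 38 to 29 bases and GGGGCTTTCC at 11 to 2 bases. The windows of Zc3h12a, Bcl3 and Birc3 hold neither motif.

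Levels of the 10 genes were set beside each other as FPKM, which the authors scaled for gene length. Nfkbia was the most abundant, with a mean over the 9 libraries of 10.6 FPKM (SD 3.64), followed by Birc3 at 7.90 (SD 1.70), Nfkb1 at 6.93 (SD 1.84) and Nfkbiz at 6.17 (SD 1.13). Traf3ip2 at 3.91 (SD 1.02), Tnfaip3 at 3.77 (SD 0.851), Nfkb2 at 2.76 (SD 0.982) and Zc3h12a at 2.27 (SD 1.78) formed a middle tier. Relb at 1.24 (SD 0.719) and Bcl3 at 0.395 (SD 0.105) were lowest. The steps from Nfkbiz to Traf3ip2, from Tnfaip3 to Nfkb2 and from Relb to Bcl3 were larger than the SDs of both genes concerned. The other steps in this order were not. These SDs describe the spread between libraries and do not compare 2 genes within a library. Zc3h12a, for example, was above Relb in every library. Bcl3 rested on 49 to 106 counts per library and Zc3h12a on 154 to 1481, while Nfkb1 had 4669 to 10406.

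The comparison of FJDHF-M with Model asks whether the treatment shifted the NF-kB circuit in inflamed skin. With edgeR's quasi-likelihood test, 0 of the 10 genes passed an adjusted p under 0.05, as did 0% of all 20817 genes tested. At an unadjusted p under 0.05 the count was again 0 of 10, where 326 genes or 1.57% of all tested passed. DESeq2 called 2 genes in all, and neither was among these 10. The groups overlapped in all 10 genes, and 0.514% of all tested genes had groups that did not overlap. FJDHF-M was nominally lower in 8 of the 10 by the edgeR fit, where 55.9% of all tested genes were lower, and the median log2 fold change was -0.14 against -0.032 over all genes. By the difference of mean log2(CPM + 0.5), Nfkb1 (0.034) and Zc3h12a (0.075), lower in edgeR, were instead higher. Without MXL1 the count of lower genes fell to 4 and the median was 0.14, and without MR5 the count was also 4, so the direction of the set depended on single libraries. Without MXL12 the count remained at 8.

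**Figure D1:**
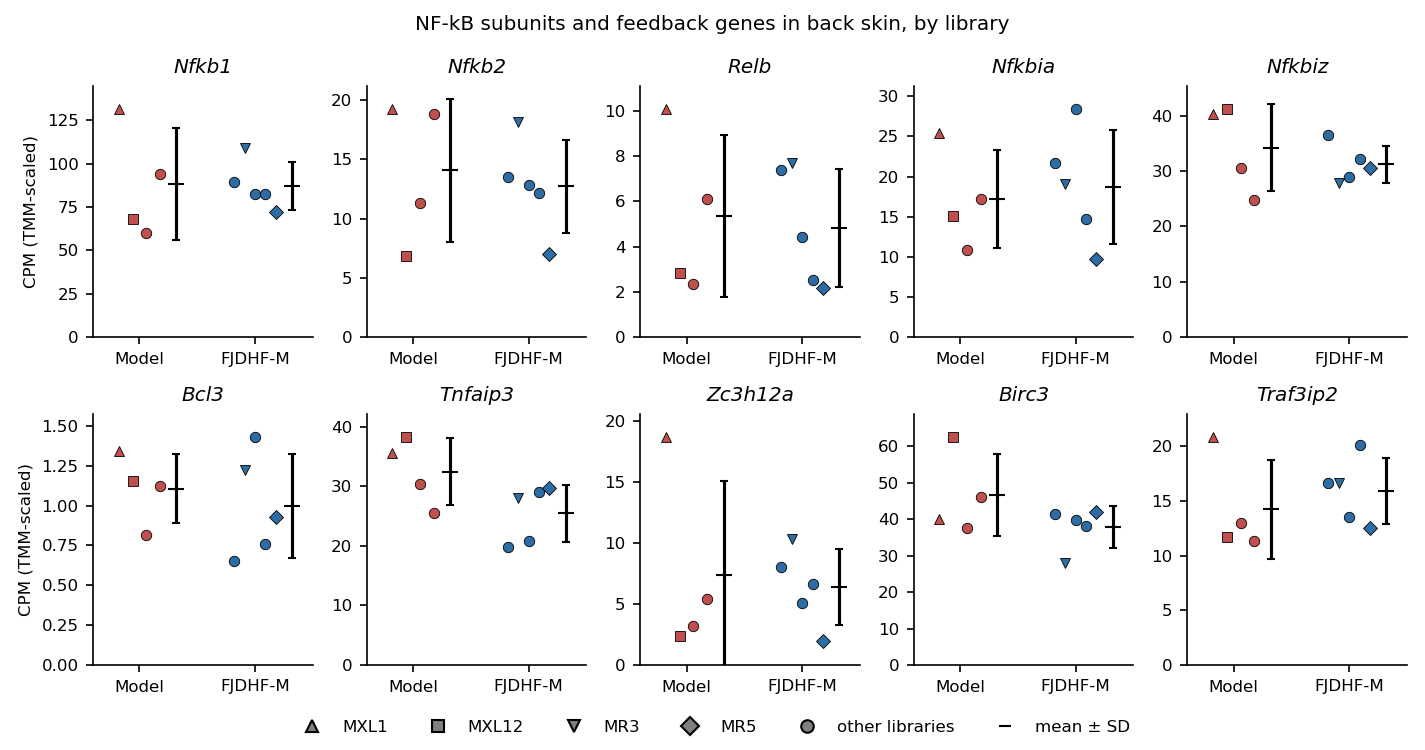
Level of each gene in CPM (linear axes from 0) in the 4 Model libraries (red) and the 5 FJDHF-M libraries (blue), with the mean and SD of each group beside the points. Symbols mark MXL1, MXL12, MR3 and MR5, and the lower end of the SD bar for Zc3h12a in Model is cut at 0. The groups overlap in every panel, and MXL1 is the highest point for Nfkb1, Nfkb2, Relb, Zc3h12a and Traf3ip2.

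Among the subunits, Nfkb1 (ENSMUSG00000028163, chr3:135584655-135691546, minus strand) codes for p105, the precursor of the DNA-binding subunit p50. Its levels were 132, 67.9, 60.2 and 94.0 CPM in the Model libraries MXL1, MXL12, MXL3_4 and MXL_3, and 89.5, 109, 82.5, 82.8 and 72.0 CPM in MR1, MR3, MR3_4, MR4_5 and MR5. The FJDHF-M values thus all lay inside the Model range. The group means were 88.4 ± 32.2 CPM (SD, n = 4) and 87.2 ± 13.8 CPM (SD, n = 5). FJDHF-M minus Model gave a log2 fold change of -0.02 (SE 0.23, 95% interval -0.54 to 0.50) in edgeR. The difference of mean log2(CPM + 0.5) was 0.034, with p = 0.905 in a two-sided exact permutation test. The smallest possible p of that test here is 0.0159.

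Nfkb2 (ENSMUSG00000025225, chr19:46304320-46312385, plus strand) codes for p100, which acts both as an IkB-like inhibitor and as the source of p52. In the same order its levels were 19.3, 6.81, 11.3 and 18.8 CPM in Model and 13.5, 18.1, 12.8, 12.1 and 7.02 CPM in FJDHF-M. Each group held high and low libraries, with MXL12 and MR5 lowest. In edgeR the log2 fold change was -0.14 (SE 0.35, 95% interval -0.92 to 0.63). Exons of Nfkb2 overlap those of Psd and of a non-coding gene on the other strand, and since the strand setting of the counting is not given, some of its counts could belong to them.

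Relb (ENSMUSG00000002983, chr7:19606217-19629438, minus strand) codes for the partner of p52 in the alternative route and is itself an NF-kB target. Its levels were 10.1, 2.83, 2.36 and 6.10 CPM in Model and 7.41, 7.68, 4.42, 2.54 and 2.18 CPM in FJDHF-M. The 4.63-fold range from MR5 to MXL1 was the second widest of the set, and both groups spanned most of it. The log2 fold change was -0.14 (SE 0.53) with a 95% interval of -1.31 to 1.02, which reaches past a 2-fold change in both directions. Without MXL1 the value was 0.37, and without MR3 it was -0.40.

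Nfkbia (ENSMUSG00000021025, chr12:55489410-55492647, minus strand), the gene for IkB alpha, is the classic feedback target whose promoter is printed above. Its levels were 25.4, 15.1, 10.9 and 17.2 CPM in Model and 21.7, 19.1, 28.4, 14.7 and 9.72 CPM in FJDHF-M. The highest and the lowest library both belonged to FJDHF-M. FJDHF-M minus Model gave a log2 fold change of 0.13 (SE 0.33, 95% interval -0.61 to 0.86), which fell to -0.074 without MR3_4.

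Nfkbiz (ENSMUSG00000035356, chr16:55811375-55838899, minus strand) codes for IkB zeta, a nuclear cofactor that interleukin-1 and interleukin-17 induce in keratinocytes. Its levels were 40.3, 41.2, 30.6 and 24.8 CPM in Model and 36.5, 27.7, 29.0, 32.2 and 30.5 CPM in FJDHF-M. It was the steadiest of the 10, with a range of 1.66-fold, and MXL12 and MXL1 were nearly level at the top. In edgeR the log2 fold change was -0.13 (SE 0.19, 95% interval -0.55 to 0.28).

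Bcl3 (ENSMUSG00000053175, chr7:19808462-19822770, minus strand), a nuclear IkB protein that binds p50 and p52 dimers, was the scarcest gene of the set. It measured 1.34, 1.15, 0.813 and 1.12 CPM in Model and 0.651, 1.22, 1.43, 0.756 and 0.930 CPM in FJDHF-M. The log2 fold change was -0.15 (SE 0.33, 95% interval -0.89 to 0.59). A gene on the other strand, Gm16175, shares 106 bases of exon with it.

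Tnfaip3 and Birc3 had the lowest log2 fold changes of the set, and neither passed the test. Tnfaip3 (ENSMUSG00000019850, chr10:19000910-19015410, minus strand) codes for A20, which edits ubiquitin chains and shuts off signalling to the IkB kinases. It measured 35.5, 38.3, 30.5 and 25.5 CPM in Model and 19.8, 28.1, 20.7, 29.1 and 29.7 CPM in FJDHF-M. The 3 highest values were Model libraries and the 2 lowest were FJDHF-M libraries, while MXL_3 lay inside the FJDHF-M range. The means were 32.5 ± 5.68 CPM (SD, n = 4) and 25.5 ± 4.81 CPM (SD, n = 5). FJDHF-M minus Model gave a log2 fold change of -0.35 (SE 0.19, 95% interval -0.78 to 0.083), with an exact permutation p of 0.111. Only without MXL_3 did the exact permutation p reach 0.0357, with a difference of -0.46, and no adjusted p passed under any setting tried.

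Birc3 (ENSMUSG00000032000, chr9:7848699-7873170, minus strand) codes for cIAP2, a ubiquitin ligase that works with TRAF2 in the TNF receptor complex and, with cIAP1, keeps the alternative route off. Its Model values were 40.2, 62.7, 37.6 and 46.25 CPM and its FJDHF-M values were 41.4, 27.9, 39.7, 38.2 and 41.9 CPM. MXL12 lay above and MR3 below a cluster of the other 7 libraries. In edgeR the log2 fold change was -0.30 (SE 0.20, 95% interval -0.74 to 0.13), with an exact permutation p of 0.206, and its size fell to -0.13 without MXL12. Birc3 has a near neighbour and paralog in Birc2, so reads could be shared between them.

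Zc3h12a (ENSMUSG00000042677, chr4:125118423-125127840, minus strand) codes for regnase-1, an endonuclease that degrades mRNAs of interleukin-6 and of other inflammatory genes. It measured 18.7, 2.34, 3.19 and 5.39 CPM in Model and 8.04, 10.3, 5.10, 6.60 and 1.96 CPM in FJDHF-M. Its 9.55-fold range was the widest of the set, and 5.36% of all tested genes had a larger SD between libraries on the log2 scale. The Model mean of 7.41 ± 7.66 CPM (SD, n = 4) rested largely on MXL1, and the FJDHF-M mean was 6.40 ± 3.14 CPM (SD, n = 5). The log2 fold change was -0.21 (SE 0.64, 95% interval -1.62 to 1.20), and it was 0.81 without MXL1.

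Traf3ip2 (ENSMUSG00000019842, chr10:39612934-39655307, plus strand) codes for Act1, the adaptor that joins the interleukin-17 receptor to NF-kB signalling. It measured 20.9, 11.7, 13.0 and 11.4 CPM in Model and 16.6, 16.7, 13.5, 20.1 and 12.5 CPM in FJDHF-M. Apart from MXL1, the Model libraries lay at the low end of the FJDHF-M range or below it. FJDHF-M minus Model gave a log2 fold change of 0.16 (SE 0.24, 95% interval -0.38 to 0.69), the highest of the 10. An antisense gene, E130307A14Rik, shares 224 bases of exon with it.

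**Figure D2:**
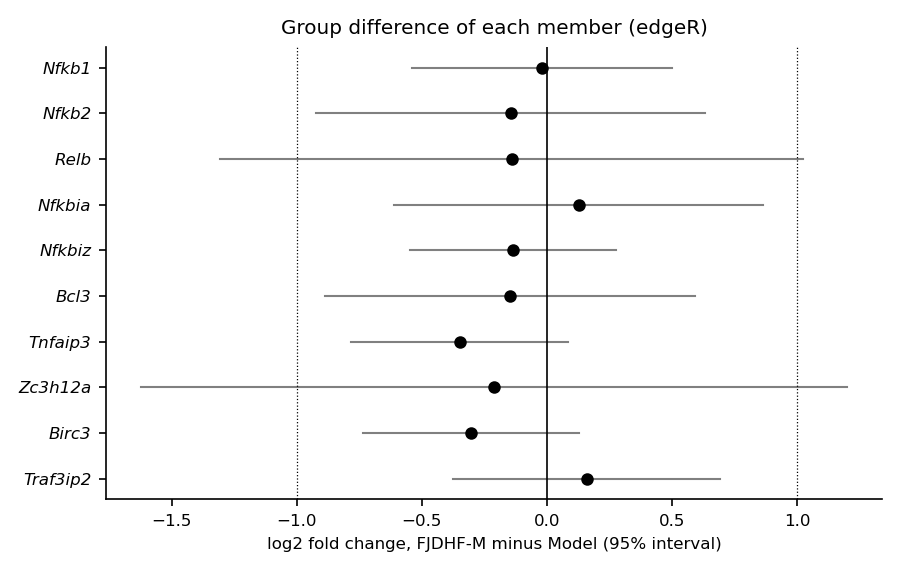
Log2 fold change of each gene (FJDHF-M minus Model, edgeR) with its 95% interval. The dotted lines mark a 2-fold change. All intervals include 0, those of 8 genes stay within the dotted lines, and those of Relb and Zc3h12a reach past them on both sides.

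The intervals set what these libraries could show. For 8 of the 10 genes the 95% interval of the log2 fold change stayed within -1 to 1, so a 2-fold change lay outside it. For Relb and Zc3h12a it did not, and a 2-fold change was not detectable for them at this spread. In whole skin, fewer cells of a type and less RNA per cell cannot be told apart.

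The differences between libraries had a clear structure. MXL1 was the highest library for 5 of the 10 genes, namely Nfkb1, Nfkb2, Relb, Zc3h12a and Traf3ip2, and it was the highest for 16.9% of all tested genes. MXL12 was the highest for 3, namely Nfkbiz, Tnfaip3 and Birc3, where it was the highest for 14.5% of all tested genes. MR5 was the lowest for Relb, Nfkbia and Zc3h12a and for 15% of all tested genes. The median SD between libraries on the log2 scale was 0.333 for the 10 genes and 0.346 for all tested genes, so the set was about as variable as other genes.

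Correlations over the 9 libraries, given as descriptions, put some of the genes into a common pattern. Of the 45 pairs of genes, 31 had a positive Pearson r. The share over pairs of all tested genes was not computed, so this count has no background to be read against. Nfkb1 and Zc3h12a went together with r = 0.91, Nfkb1 and Relb with 0.89, Relb and Zc3h12a with 0.86, Nfkb2 and Zc3h12a with 0.86, and Nfkb1 and Nfkb2 with 0.79. Tnfaip3, Birc3 and Nfkbiz had r of -0.12, -0.50 and 0.13 with Zc3h12a. The genes whose levels were most like the mean of the 10 were Unc13d, Pheta1, Sh3bp2, Rps4l and Ptms, with r of 0.96, 0.96, 0.96, 0.96 and 0.95 over 9 libraries among 15705 genes. Without MXL1, the library farthest from the others in that mean, they were Calhm2, Tgfb1, Cuta, Col4a1 and Mgmt, with r of 0.97, 0.94, 0.94, 0.93 and 0.93 over 8 libraries. No gene was in both lists, so the order of likeness depended on MXL1. The first list lay at percentiles 86.4 to 99.8 of GC content among tested genes, and the second at 66.9 to 91.4. Sh3bp2 had a rho of only 0.67.

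The common pattern moved with the base composition of the genes. For each library, the GC trend is the median log2 deviation of the 20% of genes with the highest GC content (at least 54.9%) minus that of the 20% with the lowest (at most 43.6%). It was 0.727 in MXL1, 0.60 in MR3, 0.216 in MR1, 0.170 in MR3_4, 0.142 in MXL_3, 0.011 in MR4_5, -0.378 in MXL3_4, -0.746 in MXL12 and -0.770 in MR5. Both ends of this order held libraries of both groups. Over all tested genes, which were divided by GC content into 5 classes of equal size, the median r with the GC trend rose from -0.53 in the lowest class through -0.39, -0.14 and 0.32 to 0.74 in the highest. The trend is itself computed from the highest and lowest of these classes. Opposite signs at the ends are therefore built in, and the medians serve only as a background for single genes.

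Of the 10 genes, 6 followed the GC trend with r above 0.6 over the 9 libraries. Zc3h12a had r = 0.96 and rho = 0.93, Nfkb2 r = 0.93 and rho = 0.88, Nfkb1 r = 0.89 and rho = 0.85, Relb r = 0.88 and rho = 0.93, Nfkbia r = 0.77 and rho = 0.83, and Traf3ip2 r = 0.67 and rho = 0.67. Without the 2 libraries farthest from the median of the trend, these r were 0.93, 0.80, 0.97, 0.89, 0.72 and 0.52. Zc3h12a, Nfkb2 and Relb have transcripts of 57.1%, 59.4% and 56.8% GC and lie in the highest class, where 8.97%, 17.6% and 30.7% of genes had a higher r than they did. Nfkb1 is different, with a GC content of 44.9% in the second lowest class, where only 0.505% of 4157 genes had a higher r. Bcl3, the most GC-rich of the 10 at 62.6%, had r = 0.32, and 79.3% of the genes in its class had a higher one. Nfkbiz (r = -0.11), Tnfaip3 (r = -0.29) and Birc3 (r = -0.59) lay near the medians of their classes or, in the case of Birc3, below.

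**Figure D3:**
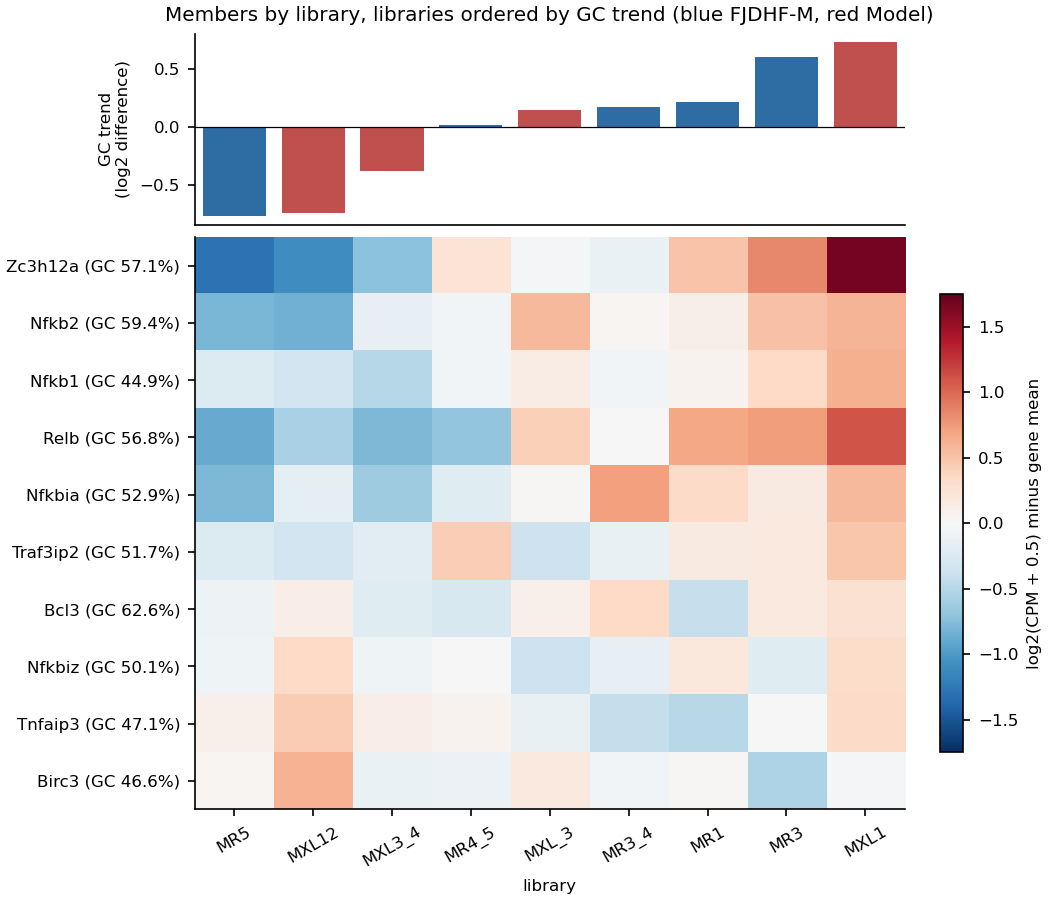
Lower panel, log2(CPM + 0.5) of each gene in each library minus the mean of that gene over the 9 libraries. Upper panel, the GC trend of each library as a log2 difference, with FJDHF-M in blue and Model in red. Libraries run from the lowest GC trend (MR5) to the highest (MXL1), and the upper 6 genes change, by and large, from blue to red along that order while Tnfaip3 and Birc3 are highest in MXL12.

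**Figure D4:**
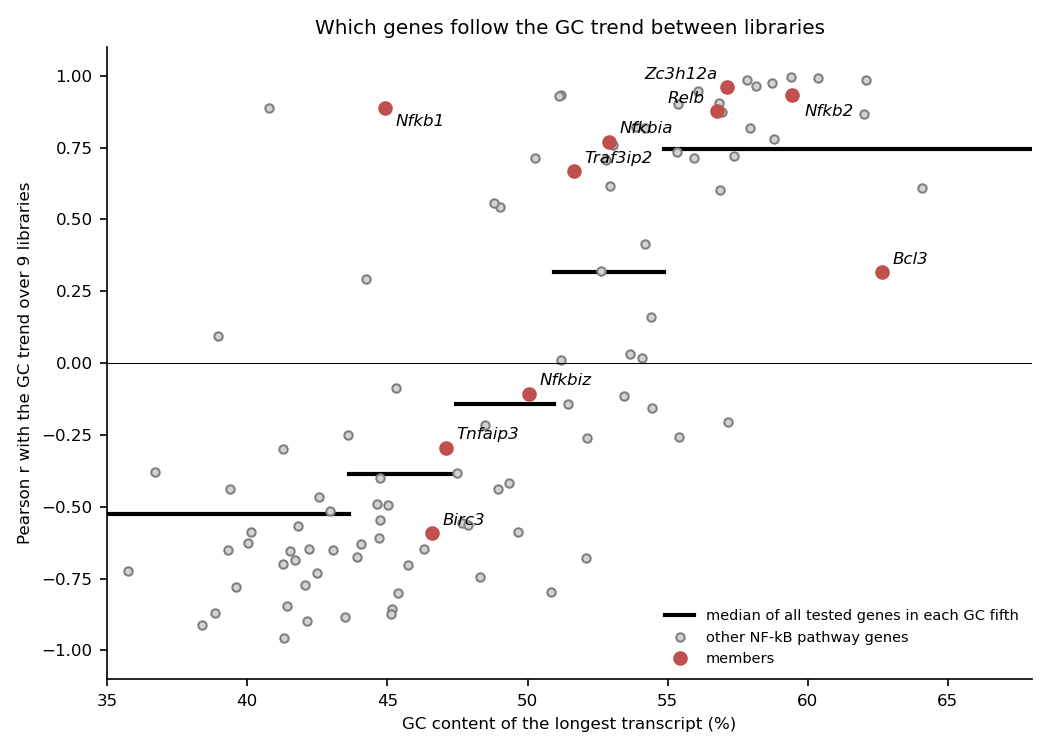
Pearson r of each gene with the GC trend over the 9 libraries against the GC content of its longest transcript. Red points are the 10 genes, grey points the other NF-kB pathway genes and black lines the medians of all tested genes in 5 classes of GC content. Nfkb1 lies far above the median of its class and Bcl3 below that of its own.

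The group comparison was repeated after subtracting, in each library, the median deviation of genes of like GC content. This alternative was added after the data were seen. It left 0 of the 10 genes called and 8 lower in FJDHF-M. The range between libraries narrowed from 9.55-fold to 3.89-fold for Zc3h12a, from 4.63-fold to 2.56-fold for Relb and from 2.83-fold to 1.62-fold for Nfkb2. It widened from 2.19-fold to 2.60-fold for Nfkb1 and from 2.20-fold to 2.48-fold for Bcl3. The correlation of Nfkb2 with Zc3h12a went from 0.86 to -0.05 and that of Nfkb1 with Nfkb2 from 0.79 to 0.06. That of Nfkb1 with Zc3h12a stayed at 0.91 and that of Relb with Zc3h12a was 0.62. For Nfkb1 the subtraction added to the trend, from 7.05 to 7.19 in MXL1 and from 6.18 to 6.02 in MR5 on the log2 scale. Its r of 0.91 therefore does not show what the pair shares apart from GC content.

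A few genes moved with the level of basal keratinocyte markers, before and after the GC subtraction of the gene levels. The marker levels were used without that subtraction throughout. The r after it therefore compare a corrected gene with uncorrected markers, and do not show what is shared apart from GC content. The mean level of 5 basal keratinocyte markers (Krt5, Krt14, Krt15, Itgb4 and Col17a1), as mean log2(CPM + 0.5), was 9.46 in MXL1 and 6.71 in MXL12, with the other Model libraries at 7.51 and 6.88 and the FJDHF-M libraries at 7.09 to 8.60. Traf3ip2 followed this level with r = 0.97 and rho = 0.97 over the 9 libraries, 0.97 without the 2 farthest and 0.96 after the GC subtraction. Its r exceeded that of 99.9% of all tested genes. Zc3h12a had r = 0.88, or 0.91 after the subtraction, and Nfkb1 0.72, or 0.73. Birc3 had r = -0.58, or -0.84 without the 2 farthest libraries, and Tnfaip3 0.05. Bcl3 had r = 0.016 before the subtraction and -0.81 after it. Markers of differentiated keratinocytes were ordered differently, at 8.64 to 9.57 in FJDHF-M and 7.45 to 8.79 in Model, with MR1 highest, and r with them was 0.63 for Traf3ip2 (0.28 without the 2 farthest libraries), 0.39 for Zc3h12a and 0.31 for Nfkb1. In all, 50 such correlations were computed, for the 10 genes with the levels of basal, differentiated and activated keratinocyte, neutrophil and macrophage markers. Nfkbia went with the macrophage markers (r = 0.81, or 0.79 after the subtraction, and 0.74 without the 2 farthest libraries), as did Relb (r = 0.72, 0.70 and 0.61), and Tnfaip3 went against them (r = -0.65, -0.47 and -0.61). Birc3 had r = 0.75 with the neutrophil markers, which was 0.39 without MXL12 and MXL1. The part of cell content in the gene levels was not tested.

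MXL12 gives a view of the circuit in a library with a large inflammatory signal. Of 22 inflammatory NF-kB target genes, 21 could be tested, and 15 of these were highest in MXL12, as were 14.5% of all tested genes, with a median log2 ratio of 1.39 to the median of the other 8 libraries. The list was chosen with earlier results of these data known, and some genes named here after their values were seen. These counts are therefore a description and not a test. The ratio was 7.53 for Cxcl5, 6.82 for Il1b, 6.53 for Cxcl2 and 5.94 for Cxcl3, which code for neutrophil-attracting chemokines and interleukin-1 beta. It was 4.98 for the prostaglandin synthase gene Ptgs2 and 3.75 for Il6. MR4_5, an FJDHF-M library, shared part of this signal, which a ratio to the median of the other 8 libraries does not show. It held 31.98 CPM of Cxcl2 and 5.98 CPM of Cxcl3, against 72.3 and 10.1 CPM in MXL12. For Il1b (50.2 against 659 CPM) and Ptgs2 (25.9 against 222 CPM) it was second but far lower. Its Cxcl5 and Il6 were 1.01 and 1.33 CPM, against 96.8 and 14.1 CPM. The Cxcl3 ratio has a denominator of only 0.164 CPM. Of the 21 targets, 14 had a ratio above the highest of the 10 subunit and feedback genes and 7 lay within their range, among them Icam1 at -0.64, Ccl2 at -0.10 and Sod2 at 0.60. Birc3 was at 0.65, Nfkbiz at 0.43 and Tnfaip3 at 0.42, the 3 that were highest in MXL12, and Bcl3 was at 0.17. Nfkbia, whose promoter carries a kB motif, was at -0.27, Nfkb1 at -0.34 and Traf3ip2 at -0.37, and Relb at -0.89, Nfkb2 at -0.95 and Zc3h12a at -1.36 were furthest below that median. The median of the 10 was -0.31.

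MXL12 also had nearly the lowest GC trend, so the ratios of the subunit and feedback genes were computed again after the GC subtraction. Those of the induced targets were not. How the targets compare with these genes after the subtraction was therefore not tested. Birc3 (0.54), Nfkbiz (0.45) and Tnfaip3 (0.34) changed little, Bcl3 rose to 0.86, and Nfkbia (0.032), Relb (-0.11) and Nfkb2 (-0.17) came close to the other libraries. Traf3ip2 (-0.25), Nfkb1 (-0.53) and Zc3h12a (-0.58) stayed below them. MXL12 is a single library, so these ratios have no replicate check. Its neutrophil marker level was the highest and its basal keratinocyte level the lowest of the 9. The neutrophil markers include S100a8 and S100a9, which are also among the activated keratinocyte markers. The level of the latter was 7.25 in MXL12, below MR4_5 at 7.55 and above the rest. The part of any of these cell types in the ratios was not tested.

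**Figure D5:**
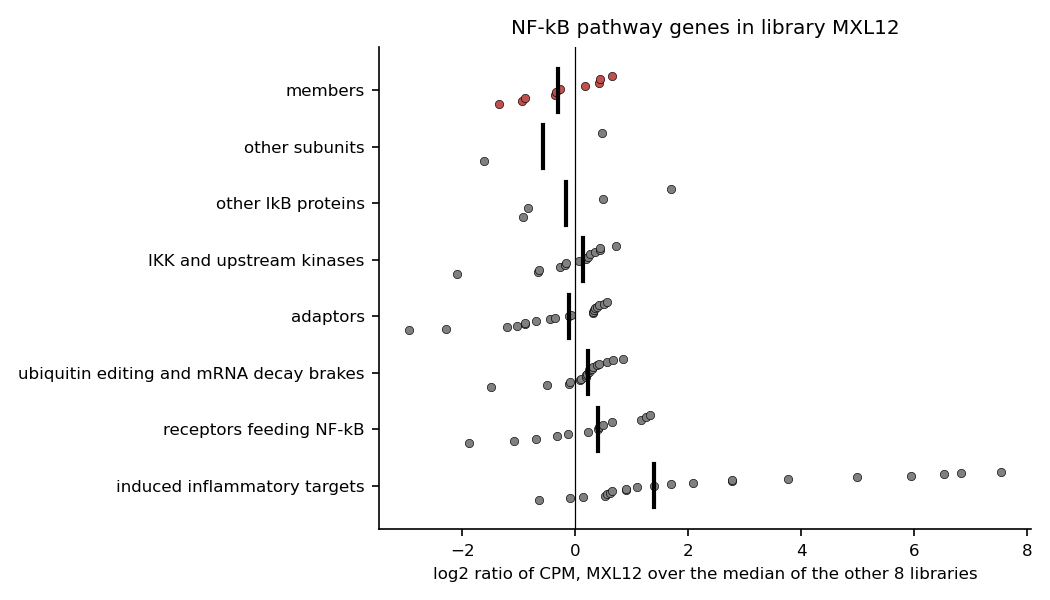
Log2 ratio of CPM in MXL12 to the median of the other 8 libraries. Each point is a gene, and the black bar is the median of its list. The 10 genes (red) lie between -1.36 and 0.65, and the induced targets reach 7.53, all without the GC subtraction.

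The rest of the pathway was described with 92 other genes in 7 lists, of which 91 could be tested. None passed an adjusted p under 0.05, and 1 passed an unadjusted p under 0.05. FJDHF-M was nominally lower in 59 and higher in 32, which is 64.8% lower against 55.9% of all tested genes, and the median log2 fold change was -0.074. The gene at an unadjusted p under 0.05 was Cxcl5, with an unadjusted p of 0.019 in the edgeR fit across all genes and a log2 fold change of -4.98. Its Model mean rested on MXL12, at 96.8 CPM, where the other 8 libraries held 0.10 to 1.94 CPM, and the exact permutation p was 0.651. Without MXL12 its log2 fold change was 0.96. In that fit the count of pathway genes at an unadjusted p under 0.05 was 5, where 380 of all 21332 genes tested passed. Without MXL1 it was 9, where 734 of all 21292 genes tested passed.

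The remaining subunits lay in opposite classes of GC content, with Rela at 59.4% in the highest and Rel at 42.5% in the lowest. The median r with the GC trend was 0.74 and -0.53 in these classes, where opposite signs are built in. Rela, which codes for the transactivating partner of p50, ranged 6.13-fold from 8.47 CPM in MR5 to 52.0 CPM in MXL1 and followed the GC trend with r = 0.99. Its group means were 26.8 ± 18.8 CPM (SD, n = 4) in Model and 28.2 ± 13.3 CPM (SD, n = 5) in FJDHF-M, with a log2 fold change of 0.075 (SE 0.53). Rel, which codes for c-Rel, a subunit of lymphoid and myeloid cells, ranged only 1.70-fold, was highest in MXL12 at 43.0 CPM and had r = -0.73 with the trend. Its log2 fold change was -0.16 (SE 0.19).

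The other IkB proteins (4 genes, 3 lower) and the IkB kinases with their upstream kinases (14 genes, 11 lower) had medians of -0.051 and -0.043. Nfkbid, which codes for the nuclear protein IkB NS, was at 2.67 CPM in MXL12 and 0.335 to 1.11 CPM elsewhere, with a log2 fold change of -0.39 (SE 0.52). Nfkbie, the gene for IkB epsilon, had -0.082 (SE 0.27). Ikbkb, the gene for the canonical IkB kinase beta, had 0.16 (SE 0.19) and r = 0.93 with the GC trend, and Irak3, a brake on interleukin-1 receptor signalling, had -0.16 (SE 0.21).

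Adaptors (19 genes, 10 lower) had a median of -0.030 and ubiquitin-editing and mRNA decay brakes (18 genes, 9 lower) one of 0.0059. Card14, a keratinocyte scaffold for NF-kB with 56.8% GC, ranged 10.4-fold from MR5 to MXL1 and had r = 0.90 with the GC trend. Its log2 fold change was -0.46 (SE 0.62), and that of its partner Malt1 was -0.26 (SE 0.19). Tnip3, a binding partner of A20, had -0.61 (SE 0.37, p = 0.125 in edgeR and 0.0794 in the exact permutation test). Zfp36l1, which codes for a protein that promotes mRNA decay, had 0.24 (SE 0.19).

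Receptors that feed NF-kB (13 genes, 8 lower) had a median of -0.11, and the induced targets (21 tested, 17 lower) one of -0.34. Of all tested genes, 55.9% were lower. Since 15 of the 21 targets were highest in the Model library MXL12, their direction leans on that library. Their median without it was not computed. Il1r1 and Il1rap, the chains of the interleukin-1 receptor, were highest in MXL12 at 295.7 and 184.6 CPM, where the other 8 libraries held 85.2 to 139 CPM and 55.8 to 94.6 CPM. Their log2 fold changes were -0.49 (SE 0.30) and -0.53 (SE 0.28). Il6, a cytokine gene whose mRNA regnase-1 degrades, was at 14.1 CPM in MXL12 and 0.225 to 1.34 CPM elsewhere, with a log2 fold change of -2.06 (SE 0.95) and an exact permutation p of 0.587.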

How the data were processed

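Back skin RNA-seq of 4 Model and 5 FJDHF-M libraries was used. The authors deposited whole-number read counts per gene, without normalization, and FPKM values, in which the authors corrected for transcript length and library size. The submitters' processing notes name HISAT, StringTie, DESeq2 and the build mm10, and the strand setting of the counting is not given in the sources used here. A further 9 columns of per-library counts in the FPKM table were not used. The genes and lists were chosen with earlier results of these data known.

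The count model was the quasi-likelihood test of edgeR 4.0.16 under R 4.3.3 (TMM scaling, filterByExpr, Benjamini-Hochberg adjustment over 20817 genes, no covariate). CPM are TMM-scaled. For single levels, log2(CPM + 0.5) was compared by exact permutation (two-sided, 126 splits, smallest p 0.0159) in scipy 1.17.1 under Python 3.11.15. Alternatives were DESeq2 1.42.0 (Wald test and size factors), limma 3.58.1 on log2(FPKM + 1), no filter or at least 10 counts in every library, leaving out each library, a replicate block, a pseudocount of 0.1, FPKM or ranks for single levels, and a GC offset in 20 bins of GC content, added after the data were seen. GC content came from the longest transcript in GENCODE M21 for 20787 genes. The steps were tested on simulated data. Figures used matplotlib 3.10.9.

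Besides the 10 genes, Rela, Rel and the 2 genes with the smallest unadjusted p in each of 7 pathway lists were named. Nearest patterns were sought among genes with a mean of at least 1 CPM. Other target genes, those named for MXL12, were chosen after their values were seen. Total counts of 74648669 to 79474215 per library were read with a floor of 3 counts, and that floor accounts for counting error alone, not for PCR duplicates. Column codes were not matched to single mice.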

Additional observations from a re-analysis of the deposited data

Results flagged for a closer look

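In Birc3, the FJDHF-M library MR3 stood apart from the other 4 of its group. On the log2(CPM + 0.5) scale its gap to the nearest library was 0.776 of the group's whole range, above Dixon's critical ratio of 0.71 for 5 libraries. MR3 held 27.9 CPM, and the others held 38.2 to 41.9 CPM. Without MR3 the exact permutation p for Birc3 was 0.371. This was the single case among 22 comparisons, where chance gives about 1.1.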

How the results depend on the processing

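No gene of the 10 passed an adjusted or an unadjusted p under 0.05 in any of the 16 alternative fits. The median log2 fold change of the 10 lay between -0.25 and 0.14, so its sign was not stable. The pooled SD within groups of the mean level of the 10 was 0.323. That SD describes single libraries and is not the error of a difference between groups. The count of all genes at an adjusted p under 0.05 was 2 with DESeq2's Wald test. The count at an unadjusted p under 0.05 was 905 without a filter, and 217 (without MR4_5) to 734 (without MXL1) when 1 library was left out. Genes lower in FJDHF-M numbered 5 with the replicate block and 4 to 9 when 1 library was left out. Pathway genes at an unadjusted p under 0.05 numbered 0 with limma. They also numbered 0 with DESeq2's Wald test, at least 10 counts in every library or the replicate block, but DESeq2 gave no p for 7 of the 91 fitted genes, Cxcl5 (-4.99) included, the count minimum left Cxcl5 out, and the block has no MXL12, so these are not lost calls. They numbered 2 with the GC offset, and 1 to 9 when 1 library was left out. The exact permutation test reached a p under 0.05 for 0 to 1 gene when 1 library was left out, which was Tnfaip3 without MXL_3. The share of promoters with the looser motif was 4.65%.

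Nfkbiz, Bcl3, Tnfaip3, Birc3 and Traf3ip2 kept their sign in every fit, and the sign of the other 5 changed 18 times, never past a threshold. With limma, the log2 fold change was 0.048 for Nfkb1 and 0.033 for Zc3h12a. With the replicate block it was 0.039 for Nfkb1, 0.26 for Relb and 0.15 for Zc3h12a. Leaving out 1 library gave -0.17 to 0.24 for Nfkb1, -0.37 to 0.045 for Nfkb2, -0.40 to 0.37 for Relb, -0.074 to 0.38 for Nfkbia and -0.51 to 0.81 for Zc3h12a. For these fits, the cause was not tested.

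The replicate block used the 6 libraries whose codes share a number. The deviations of same-numbered libraries correlated with 0.22, 0.12 and -0.22. Differently numbered libraries were not set beside them, so what a shared number stands for remains unknown. The biological coefficient of variation over the 9 libraries was 0.477. A group of 4 rests on single libraries such as MXL1 and MXL12. Overlapping genes, a paralog and an unknown strand setting limit Nfkb2, Bcl3, Traf3ip2 and Birc3.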
